A study of Homo sapiens with 4 samples.

Results

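Serum amyloid A and acute phase genes were followed in HeyA8-MDR, a human ovarian carcinoma line with multidrug resistance, after inhibition of miR-204-5p. The 9 genes were SAA1, SAA2, SAA4, C3, CFB, PTX3, LCN2, CP and HP. They were selected on their measured difference between the inhibitor arrays and the control arrays together with their known roles, and each was taken as the feature that carries its symbol in the platform annotation. Of the 9, 7 had a named feature, 1 each, among 21448 features in all, while SAA2 and SAA4 had none here and are not analysed. The inhibitor group was HeyA8-MDR cells labelled miR204 (2 arrays) and the control group was HeyA8-MDR cells without that label (2 arrays). The groups were assigned from the sample titles and from the design text, which sets an inhibitor of miR-204-5p against a control inhibitor, because the treatment note is worded alike for all 4 samples. Both groups were kept in 300 ng/ml paclitaxel with 15% serum and gentamicin, so the control cells were also under the drug. Dose and duration of the inhibitor are not stated in the labels. All arrays came from 1 cell line, and no label says whether replicates were separate cultures, so p-values cover only the spread of these arrays, part or all of which may be technical.

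The acute phase response is the shift in secreted proteins that follows infection or injury. In the liver it is driven by interleukin-6 through STAT3 and by interleukin-1 and tumour necrosis factor through NF-kappaB and C/EBP factors, and these signals act together on the serum amyloid A genes. Epithelial and carcinoma cells can make several of the same proteins, among them complement C3, lipocalin-2 and the long pentraxin PTX3, outside the liver.

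The microRNA that the inhibitor blocks is shown first because all comparisons rest on it, beside miR-211-5p, which shares its seed. Bases 2 to 8, the seed that pairs with messenger RNA, are in capitals, and both sequences are RefSeq entries on GRCh38.p14.
hsa-miR-204-5p: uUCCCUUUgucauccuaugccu
hsa-miR-211-5p: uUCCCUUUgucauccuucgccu
Neither the level of miR-204-5p nor its loss was analysed here.

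NF-kappaB is a shared regulator of PTX3, LCN2 and CFB. PTX3 was higher with the inhibitor, while LCN2 and CFB had low values and small differences. Promoters are shown for these 3, the measured members with an entry in the RefSeq table. Each runs from 250 bases before the start site to 50 bases from it, 5′ to 3′ on the gene's strand, on GRCh38.p14. PTX3 lies at chr3:157436600-157436899, LCN2 at chr9:128149203-128149502 and CFB at chr6:31945845-31946144, all on the plus strand. Capitals mark matches to the NF-kappaB consensus of 10 bases, searched on both strands.
PTX3: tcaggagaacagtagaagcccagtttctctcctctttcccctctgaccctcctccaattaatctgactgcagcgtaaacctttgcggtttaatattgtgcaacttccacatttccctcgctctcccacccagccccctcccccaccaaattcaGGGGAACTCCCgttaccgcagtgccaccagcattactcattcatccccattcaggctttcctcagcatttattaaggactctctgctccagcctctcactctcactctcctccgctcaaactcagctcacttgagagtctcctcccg
LCN2: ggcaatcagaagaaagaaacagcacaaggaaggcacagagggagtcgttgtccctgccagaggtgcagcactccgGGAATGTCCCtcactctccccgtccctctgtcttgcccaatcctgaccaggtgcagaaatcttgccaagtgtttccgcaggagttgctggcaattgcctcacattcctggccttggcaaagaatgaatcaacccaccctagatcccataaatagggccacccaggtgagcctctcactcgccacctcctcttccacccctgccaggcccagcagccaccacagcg
CFB: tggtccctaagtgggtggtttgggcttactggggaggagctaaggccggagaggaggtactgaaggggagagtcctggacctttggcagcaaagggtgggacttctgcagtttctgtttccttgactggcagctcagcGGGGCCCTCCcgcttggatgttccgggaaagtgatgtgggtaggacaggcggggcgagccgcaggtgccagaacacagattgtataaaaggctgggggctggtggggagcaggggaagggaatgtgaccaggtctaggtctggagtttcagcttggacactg
All 3 promoters held the consensus, which 11.3% of the 35116 promoters in the table hold. The same search gave 1 match in the promoter of IL6 and 0 in those of CXCL8 and SAA4. A site that departs from this pattern is missed, so a 0 does not mean that a promoter has no NF-kappaB site. The PTX3 match spans positions -97 to -87 from the start site, where matches on both strands overlap. The STAT element TTCNNNGAA was found in CFB alone of the 3, and in 7.66% of all promoters. The loose AP-1 pattern TGANTCA, with any base at N, was found in LCN2 alone of the 3, as TGAATCA, and in 7.71% of all promoters. The C/EBP consensus had 0 matches in the 3, but only 0.0427% of all promoters hold it (15 of 35116). A search this strict could hardly find a match, so that 0 tells nothing about C/EBP sites in the 3. Such matches describe these windows only and show no binding.

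The deposited values are log2 expression values, so a difference of 1 is 2-fold. They ran from 1.61 to 13.1, and array medians were 5.59 and 5.61 in the inhibitor arrays and 5.65 and 5.68 in the controls. In limma with Benjamini-Hochberg adjustment, 11 features passed an adjusted p of 0.05, all higher with the inhibitor. The cell line was checked on marker genes. Among the lowest 25% of feature means lay 2 of 9 epithelial and ovarian carcinoma markers and 0 of 5 mesenchymal markers. Without overlap between groups, 0 of those 9 were higher and 6 lower, and 2 of those 5 were higher and 3 lower. Over all features these shares were 16.5% higher and 33.8% lower. The carcinoma keratin KRT7 averaged 10.32 with the inhibitor and 10.72 in controls, while the epithelial gene EPCAM averaged 3.15 with the inhibitor and 3.53 in controls and sat among the lowest 25% of feature means, which end at 3.965. The drug efflux pump gene ABCB1, which marks multidrug resistance, had values of 7.67 and 7.55 with the inhibitor and 7.68 and 7.77 in controls. No detection calls were used, so low values may stand for undetected transcripts, and the number of arrays limits the precision of every value.

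Among the 7 measured genes, SAA1, C3 and PTX3 had higher values in the inhibitor arrays, by 2.49-fold, 1.91-fold and 1.55-fold. The metal carriers and the other complement gene, CP, HP, LCN2 and CFB, all lay among the lowest 25% of feature means and differed by at most 0.34 log2 units.

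SAA1 encodes serum amyloid A1, a small apolipoprotein of high-density lipoprotein whose plasma level climbs steeply in inflammation. Its values were 6.05 and 6.29 in the inhibitor arrays, against 4.83 and 4.88 in the control arrays. Both inhibitor arrays lay above both controls, and the gap between the nearest arrays of the groups was 1.17, against a spread of 0.24 within the inhibitor group and 0.05 within the controls. The means were 6.17 ± 0.170 with the inhibitor and 4.86 ± 0.0354 in controls (SD, n = 2 each), a log2 difference of 1.315. Of all features, 24 (0.112%) had a difference at least as high, SAA1 included. SAA1 and SAA2 are near-identical neighbouring genes, and which of their transcripts the feature binds was not resolved here.

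**Figure D1:**
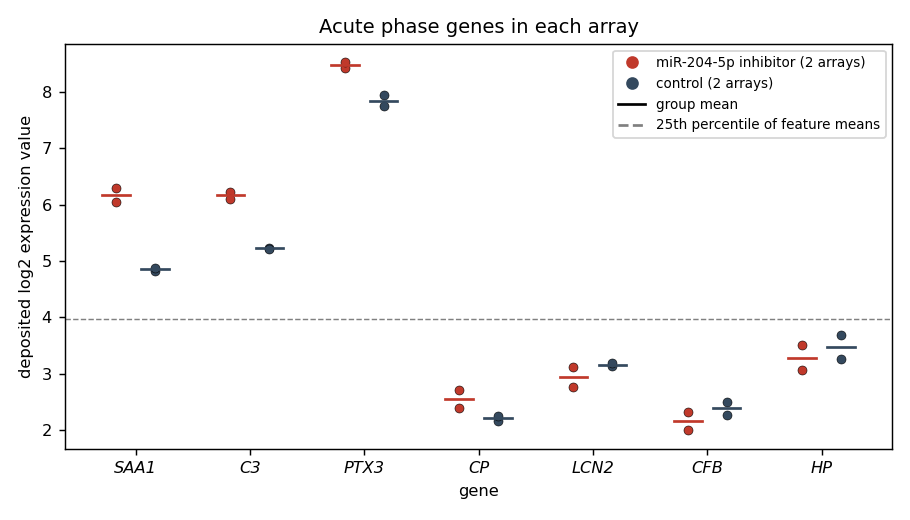
Deposited log2 expression values (y axis) of the 7 measured acute phase genes (x axis), with 1 point per array, inhibitor arrays in red at the left and control arrays in dark blue at the right of each gene. Horizontal bars are group means and the dashed line is the 25th percentile of feature means (3.965): SAA1, C3 and PTX3 lie above it with separate groups, and CP, LCN2, CFB and HP lie below it.

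C3 is the central component of complement, cleaved in all activation pathways to opsonise targets. It had values of 6.22 and 6.11 with the inhibitor, against 5.24 and 5.22 in controls. The groups did not overlap, with 0.87 between the nearest arrays and at most 0.11 within a group. Means were 6.17 ± 0.0778 with the inhibitor and 5.23 ± 0.0141 in controls (SD, n = 2 each), a log2 difference of 0.935. There were 86 features (0.401%) with a difference at least as high.

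CFB encodes factor B, which pairs with C3b to form the C3 convertase of the alternative pathway. Its values were 1.99 and 2.31 with the inhibitor, against 2.50 and 2.26 in controls, so the groups overlapped. The difference of -0.23 was smaller than the spread of 0.32 within the inhibitor group.

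PTX3, a long pentraxin that binds microbes and complement C1q and is made locally by many stromal and tumour cells, had values of 8.43 and 8.53 with the inhibitor, against 7.95 and 7.75 in controls. The groups did not overlap, with 0.48 between the nearest arrays and 0.20 within the controls. Group means were 8.48 ± 0.0707 with the inhibitor and 7.85 ± 0.141 in controls (SD, n = 2 each). The log2 difference was 0.63, and 345 features (1.61%) had one at least as high.

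The remaining members bind iron, copper or hemoglobin. LCN2, lipocalin-2, withholds iron from bacteria by binding siderophores, and had values of 3.12 and 2.76 with the inhibitor, against 3.13 and 3.18 in controls. The inhibitor arrays were lower by a margin of 0.01 only, far less than the 0.36 between them. CP, ceruloplasmin, a copper-carrying ferroxidase, had 2.70 and 2.39 with the inhibitor, against 2.16 and 2.25 in controls. Its groups were separated by 0.14, less than the 0.31 between the inhibitor arrays. HP, haptoglobin, captures free hemoglobin and has a close copy, HPR. Its values of 3.06 and 3.50 with the inhibitor, against 3.69 and 3.26 in controls, overlapped, and the spread within each group (0.44 and 0.43) exceeded the difference of -0.195. With mean levels in the lowest 25% of features, these 3 genes and CFB had differences within or close to the array-to-array spread.

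Counted over the 7 measured genes, 4 were higher in both inhibitor arrays than in both controls, against 16.5% of all features, and 1 was lower in both, against 33.8%. A difference of 2-fold or more upward was reached by 1 of 7, SAA1, against 0.298% of features. In limma 0 of 7 passed an adjusted p of 0.05, against 0.0513% of all features, and 3 had an unadjusted p under 0.05, against 17.9% of all features. Since these genes were chosen on this contrast, the counts describe them and nothing is read from them. The median log2 difference was 0.34 over the 7 genes and -0.07 over all features.

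Differences in this data set depended on level. The median difference was 0.075 in the lowest 25% of features by mean value and -0.205 in the highest 25%, a slope that quantile normalization reduced to 0.0025 and -0.015. PTX3, whose mean lies in the highest 25%, moved more with the scaling than SAA1 or C3. Its difference was 0.63 as deposited, 0.82 after quantile normalization and 0.83 after cyclic loess. The same settings gave 1.38 and 1.37 for SAA1 and 1.004 and 1.008 for C3, and 0.25 and 0.24 for CP.

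**Figure D2:**
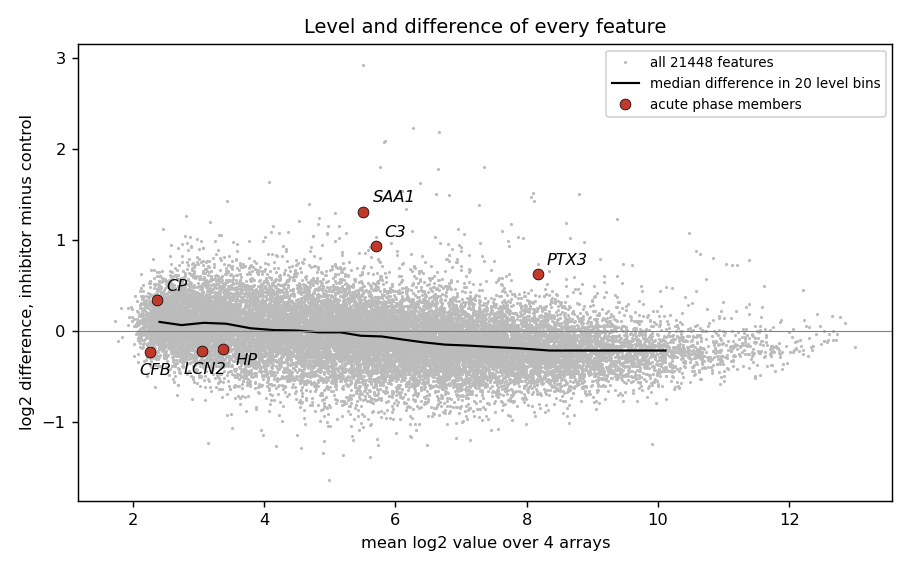
Log2 difference, inhibitor minus control (y axis), against the mean log2 value over the 4 arrays (x axis) for all 21448 features in grey, with the median of 20 level bins as a black line and the 7 acute phase genes in red. SAA1, C3 and PTX3 sit above the bulk of features of their level, and the other 4 genes sit inside it.

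Leaving out 1 array could not turn the direction of SAA1, C3 or PTX3, because their groups do not overlap, and changed only the size. Without 1 array in turn the difference ran from 1.195 to 1.435 for SAA1, from 0.88 to 0.99 for C3 and from 0.53 to 0.73 for PTX3. The CP difference was 0.185 when inhibitor array 1 was dropped and 0.495 when inhibitor array 2 was dropped. In the same fits LCN2 was at -0.395 and -0.035, and CFB at -0.07 and -0.39. CFB was also -0.11 without control array 1 and -0.35 without control array 2. HP changed direction, at 0.025 without inhibitor array 1 and 0.02 without control array 1, against -0.415 without inhibitor array 2 and -0.41 without control array 2.

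**Figure D3:**
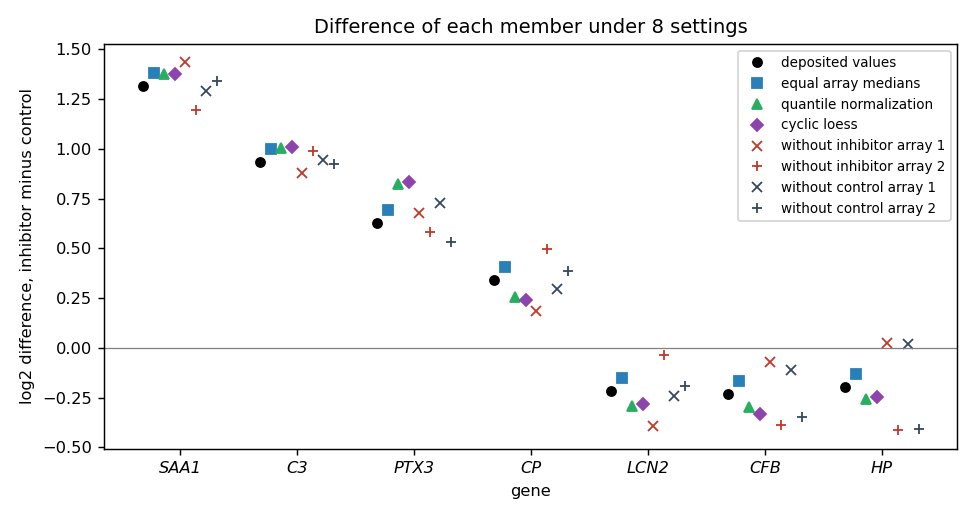
Log2 difference, inhibitor minus control (y axis), of each acute phase gene (x axis) with the deposited values, with 3 other scalings and with each of the 4 arrays left out. All 8 settings place SAA1, C3 and PTX3 at 0.53 or higher, LCN2 and CFB stay below 0 by varying amounts, and HP crosses 0.

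Cytokines that induce the acute phase were measured in the same arrays, in a list that also held the chemokine CXCL8. IL6, the main inducer of acute phase proteins, had values of 6.87 and 7.06 with the inhibitor, against 4.24 and 3.83 in controls. It rose 7.62-fold in limma (log2 difference 2.93, SE 0.185, adjusted p = 0.028), and both inhibitor arrays were above both controls. The lower control value lies within the lowest 25% of feature means, so the size of that fold is uncertain. CXCL8, the neutrophil chemokine interleukin-8, had 9.50 and 9.60 with the inhibitor, against 8.06 and 8.03 in controls, and rose 2.84-fold (SE of the log2 difference 0.141, adjusted p = 0.041 in limma). Over the settings tried the limma adjusted p ranged from 1.9e-05 to 0.83 for IL6 and from 7.8e-06 to 0.83 for CXCL8, both calls being lost after quantile normalization alone (0.058 each), with the replicate block (0.32 each) and without any 1 array, with 0.24 and 0.14 without inhibitor array 1 or 2 and 0.71 and 0.83 without control array 1 or 2.

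Of 13 measured genes in that list, IL6 and the chemokine CXCL8 rose, 0 fell and 11 did not pass. Over all features 0.0513% passed. IL1B, which encodes the interleukin-1 form that acts with IL-6 on SAA genes, had 11.52 and 11.42 with the inhibitor, against 11.18 and 11.24 in controls. Its difference of 0.26 (SE 0.142) did not pass, with a limma adjusted p of 0.38, although the arrays did not overlap. OSM, oncostatin M, another ligand of the gp130 family, differed by 0.275 (SE 0.149). The list median was 0.145, against -0.07 over all features.

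Receptor genes showed no member past the threshold among 14 measured, by limma's adjusted p, and 1, the interleukin-1 receptor IL1R1, had an unadjusted p under 0.05 (0.46, SE 0.167), against 17.9% of all features. IL6R, the interleukin-6 binding chain, had 5.72 and 5.62 with the inhibitor, against 5.64 and 5.37 in controls, and the groups overlapped. IL6ST, the shared signal chain gp130, had 9.14 and 8.99 with the inhibitor and 9.06 and 9.11 in controls, a difference of -0.02 that became 0.19 after cyclic loess. LIFR, the leukemia inhibitory factor receptor, differed by -0.445 (SE 0.252) with overlapping groups.

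**Figure D4:**
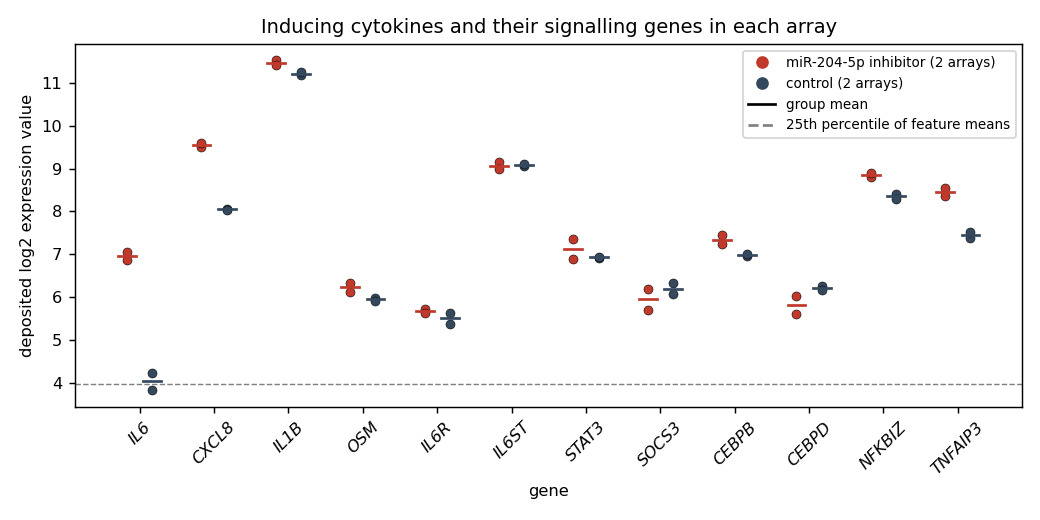
Deposited log2 expression values (y axis) of inducing cytokines, CXCL8, cytokine receptors and signalling genes (x axis), with 1 point per array. Inhibitor arrays are in red at the left and control arrays in dark blue at the right of each gene, with bars for group means. IL6 and CXCL8 show the widest separation between groups, TNFAIP3 and NFKBIZ a smaller one, and IL6R, IL6ST, STAT3 and SOCS3 overlap.

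Genes that carry or damp the signal were divided. Of 22 measured, 0 passed in limma and 3 had an unadjusted p under 0.05 (17.9% of all features did), with a list median of -0.04 (0.076 after quantile normalization). Over the list 5 were higher and 8 lower without overlap, against 16.5% and 33.8% of all features. The genes named from it are a selection and do not stand for a pathway. On the NF-kappaB side, TNFAIP3, the feedback inhibitor A20, had 8.55 and 8.37 with the inhibitor, against 7.37 and 7.51 in controls (difference 1.02, SE 0.152, limma adjusted p = 0.12). NFKBIZ, the nuclear co-activator IkappaB-zeta, which is needed for LCN2 induction in mouse cells, had 8.80 and 8.89 with the inhibitor, against 8.41 and 8.29 in controls (0.495, SE 0.144, limma adjusted p = 0.19). Both passed when limma's prior followed an intensity trend (adjusted p = 8.8e-04 and 0.018), a fit in which 1.02% of all features passed as higher.

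On the STAT3 side the groups overlapped for STAT3 and SOCS3. STAT3 itself had 6.89 and 7.35 with the inhibitor, against 6.91 and 6.94 in controls. SOCS3, a direct STAT3 target that shuts off gp130 signalling, had 6.19 and 5.70 with the inhibitor, against 6.08 and 6.32 in controls, a difference of -0.255 (SE 0.203). SOCS1, a related suppressor, had 5.21 and 4.96 with the inhibitor, against 5.47 and 5.61 in controls, without overlap (-0.455, SE 0.159, limma adjusted p = 0.22).

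The C/EBP factors that bind SAA promoters also had groups without overlap, in opposite directions, and neither passed. CEBPB had 7.44 and 7.23 with the inhibitor, against 6.97 and 7.0 in controls (0.35, SE 0.15, limma adjusted p = 0.29). CEBPD had 6.02 and 5.61 with the inhibitor, against 6.26 and 6.17 in controls (-0.40, SE 0.179, limma adjusted p = 0.30). The CEBPD difference was -0.605 when inhibitor array 1 was dropped and -0.195 when inhibitor array 2 was dropped.

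Other acute phase proteins did not pass. Of 15 measured positive acute phase genes, 0 passed in limma and 4 had an unadjusted p under 0.05, against 17.9% of all features, with a median difference of 0.08. SERPINA3, alpha-1-antichymotrypsin, had 6.14 and 6.38 with the inhibitor, against 5.94 and 5.75 in controls (0.415, SE 0.161, limma adjusted p = 0.25). The fibrinogen chains FGA and FGB differed by 0.495 and 0.47, but they and FGL1 lay among the lowest 25% of feature means, as did 10 of the 15. Of 10 negative acute phase genes, plasma proteins that decline in inflammation, 0 passed and 1, AHSG, had an unadjusted p under 0.05 (0.52, SE 0.154), against the same 17.9% of all features. ALB, albumin, differed by 0.20 (SE 0.168), and 7 of these 10 were also in the lowest 25%.

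The rest of the complement system was measured in 23 components and 12 regulators. In limma 0 of 23 components passed and 5 had an unadjusted p under 0.05, against 17.9% of all features. On average 17 were higher and 6 lower, against 40.5% of all features higher, and the median was 0.205, against -0.07 over all features. CFP, properdin, which stabilises the C3 convertase, had 6.47 and 5.85 with the inhibitor, against 5.53 and 5.35 in controls (0.72, SE 0.223, limma adjusted p = 0.20). COLEC11 and FCN1, soluble pattern receptors of the lectin pathway, differed by 0.425 (SE 0.156) and 0.395 (SE 0.14). C5, cleaved downstream of C3, differed by 0.38 (SE 0.149) at a level in the lowest 25%.

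Among regulators 0 of 12 passed and 1 had an unadjusted p under 0.05, against 17.9% of all features. It was C4BPB, the beta chain of C4b-binding protein, with 3.77 and 3.13 with the inhibitor, against 2.85 and 2.69 in controls (0.68, SE 0.226). Its level lay in the lowest 25%, and its difference was 0.36 when inhibitor array 1 was dropped and 1.0 when inhibitor array 2 was dropped. CD59, which blocks the membrane attack complex on the cell's own surface, had 10.30 and 10.43 with the inhibitor, against 10.52 and 10.60 in controls. That difference of -0.195 (SE 0.145) became 0.018 after cyclic loess. CFI, the protease that inactivates C3b, differed by 0.305 (SE 0.168) at a level in the lowest 25%.

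**Figure D5:**
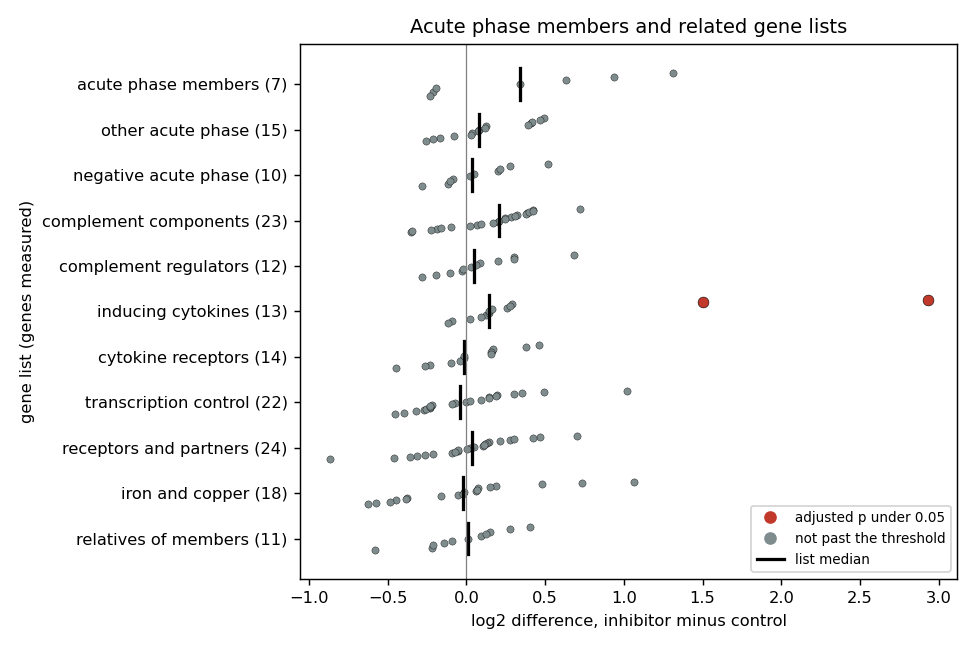
Log2 difference, inhibitor minus control (x axis), of each measured gene in the acute phase set and in 10 related lists (y axis, number of genes measured in brackets), with a black bar at each list's median. IL6 and CXCL8, in red, are the genes past an adjusted p of 0.05, and the list medians lie between -0.04 and 0.34.

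Receptors and partners of the members gave 0 of 24 genes past the threshold in limma and 5 with an unadjusted p under 0.05 (17.9% of all features had one), with a median of 0.035. ITGB2, the integrin beta-2 chain shared by the receptors for cleaved C3, had 5.50 and 5.97 with the inhibitor, against 6.49 and 6.71 in controls (-0.865, SE 0.198, limma adjusted p = 0.16). Its partner chain ITGAM differed by -0.46 (SE 0.157), and both genes were lower in both inhibitor arrays than in both controls. C5AR1, the receptor for the C5a fragment, differed by 0.705 (SE 0.156, limma adjusted p = 0.15) from a control mean in the lowest 25%. CD163, the scavenger receptor for haptoglobin complexes, differed by 0.465 (SE 0.162).

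Genes of iron and copper handling, the cargo side of LCN2, CP and HP, gave 0 of 18 past the threshold in limma and 8 with an unadjusted p under 0.05, against 17.9% of all features, with a median of -0.02. HMOX1, heme oxygenase 1, which releases iron from heme, had 7.58 and 7.56 with the inhibitor, against 6.49 and 6.52 in controls (1.065, SE 0.139, limma adjusted p = 0.10). FTL, the ferritin light chain that stores iron, had 11.33 and 11.46 with the inhibitor, against 10.66 and 10.66 in controls (0.735, SE 0.143, limma adjusted p = 0.14). TFRC, the transferrin receptor that takes iron up, had 9.42 and 9.65 with the inhibitor, against 10.10 and 10.22 in controls (-0.625, SE 0.155, limma adjusted p = 0.17). The zinc and iron importer SLC39A14 differed by -0.575 (SE 0.16). With the intensity trend 2 genes of this list rose, against 1.02% of all features, and 3 fell, against 6.09%. SLC39A14 was among those 3 and did not pass with quantile normalization and the trend together (adjusted p = 0.11).

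Markers of cells in which acute phase proteins are usually made did not pass. Of 9 measured hepatocyte markers 0 passed in limma and 0 had an unadjusted p under 0.05, against 0.0513% and 17.9% of all features. Without overlap between groups, 1 of the 9 was higher and 0 were lower, against 16.5% and 33.8% of all features. Summed log2 values of the hepatocyte markers were 37.7 and 36.3 with the inhibitor and 37.4 and 36.0 in controls. Of 10 leukocyte markers 0 passed and 0 had an unadjusted p under 0.05, while 2 were higher and 3 lower without overlap, against the same shares. Their sums were 48.3 and 49.3 with the inhibitor and 48.9 and 48.8 in controls. The arrays hold 1 cell line, so these values describe transcripts in that line and not numbers of hepatocytes or leukocytes.

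The named features whose values ran closest to SAA1 over the 4 arrays, by Euclidean distance after centring each feature on its own mean, were SPRR2D (distance 0.0943), HERPUD1 (0.163), ATF3 (0.215), CXCL8 (0.222) and NQO1 (0.233). Those closest to C3 were ARRDC3 (0.0469), HBP1 (0.0792), PNRC1 (0.128), HMOX1 (0.149) and TNFAIP3 (0.15). With 4 arrays in 2 groups these distances mainly follow the size of the difference between groups.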

How the data were processed

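Biotin-labelled cDNA from total RNA was read on Clariom S human arrays, which have 1 colour and several probes per feature. The submitters' processing notes name RMA (background correction, normalization between arrays, probe summary) and version 4.0 of the Transcriptome Analysis Console as the tools with which the authors made the deposited log2 values. Neither settings nor the genome build are stated. The platform annotation gave 1 symbol to 17709 features, several to 0 and none to 3739.

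Groups were tested on those values by limma 3.58.1, run under R 4.3.3 (lmFit, eBayes, no replicate block; 2 residual and 4.78 prior degrees of freedom) across all 21448 features, with Benjamini-Hochberg adjustment over all of them and a threshold of 0.05. An exact permutation of 2 against 2 arrays cannot give a p below 0.333, so none was used. The acute phase genes and the 10 related and 7 marker lists were chosen with earlier results of these data known. Of 181 related genes, 161 were measured. Named genes were all members, up to 4 per list with the largest moderated statistic, any gene past the threshold, IL6, IL6R, IL6ST, STAT3, SOCS3, CEBPB, CEBPD and NFKBIZ, and 5 features closest to SAA1 and to C3. Motifs were searched in the RefSeq promoter table after values were seen. Alternatives covered scaling, prior, block, filters and leaving out each array.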

Additional observations from a re-analysis of the deposited data

How the results depend on the processing

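SAA1, C3, PTX3 and CP were higher, and LCN2 and CFB lower, with the inhibitor under all alternatives that kept them. These numbered 12, 13, 13, 11, 11 and 11 in that order, and HP was higher in 2 of 11. Changing only the prior, the block or the features kept leaves a difference as it was. Dropping 1 array cannot turn a gene whose groups do not overlap. For SAA1, C3, PTX3, CP and LCN2, only rescaling could therefore have changed the direction. No member had a second feature, so averaging features could not be tried. Their median of 0.34 was 0.935 over features above the 25th percentile of level and 0.7825 above the median, where 3 and 2 members were left, and ran from 0.185 to 0.495 with 1 array left out. The count of 11 features past the threshold (11 higher, 0 lower) was 38 (28 and 10) above the 25th percentile, 1022 (147 and 875) above the median, 1525 (219 and 1306) with an intensity trend, 559 (304 and 255) with quantile normalization and that trend, an alternative chosen after seeing the data, and 0 (0 and 0) after quantile normalization, with the replicate block, and without each array (range 0 to 0). Members past it numbered 1, 2, 3 and 3 in the first 4 of these, and 0 after quantile normalization and with the replicate block. Related genes risen were 2 as deposited, 5 above the median level, 6 with the trend and 10 with quantile normalization and trend. They were 0 after quantile normalization and with the replicate block. Related genes fallen were 0 as deposited, 4 above the median level, 4 with the trend and 1 with quantile normalization and trend. With the trend 1.02% of all features passed as higher and 6.09% as lower. Filtered fits count only the features kept. Members and lists were chosen with these data known, so nothing is read from these counts. The cause of the shifts between settings was not tested. The block and left-out fits also have fewer residual degrees of freedom. Where 1 array stood alone, its spread was taken to be that of the other group. Replicate numbers share nothing else in the labels, and deviations of same-numbered arrays correlated at 0.00579. Over all features the Pearson correlation was 0.986 between the inhibitor arrays and 0.995 between the controls. Inhibitor array 2 correlated at 0.989 and 0.988 with control arrays 1 and 2, above its value with inhibitor array 1. For inhibitor array 1 the values with those controls were 0.985 and 0.984.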

Other observations

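Genes beside SAA1, C3 and PTX3 on the chromosome, in RefSeq order (3 protein-coding genes on each side, a set added after seeing the data), give the local context. Beside SAA1, 3 of 6 neighbours were measured, HPS5, GTF2H1 and LDHA, with differences between -0.215 and -0.085. Without overlap between groups, 0 were higher and 1, LDHA, was lower, against 16.5% and 33.8% of all features. Beside C3, 5 of 6 were measured and differed by -0.25 to 0.175. Of these, 0 were higher in both inhibitor arrays than in both controls and 1, TRIP10, was lower in both, against the same shares. The tumour necrosis factor family genes TNFSF14, CD70 and TNFSF9 lie on one side of C3. TNFSF14 had 4.87 and 5.42 with the inhibitor, against 5.13 and 5.06 in controls. Beside PTX3, all 6 were measured, and 1 was higher and 3 lower without overlap, again against 16.5% and 33.8% of all features. VEPH1, the nearest on one side, had 9.73 and 9.86 with the inhibitor, against 10.19 and 10.12 in controls, lower where PTX3 was higher. LEKR1, also beside PTX3, had 4.51 and 3.85 with the inhibitor, against 3.13 and 3.62 in controls, and its control mean lay in the lowest 25% of feature means.

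Relatives of the members were also measured. Of 11 pentraxins, lipocalins and the haptoglobin copy HPR, 0 passed in limma and 1 had an unadjusted p under 0.05, against 17.9% of all features, with a median of 0.01. It was NPTX1, a neuronal pentraxin, with 4.82 and 4.80 with the inhibitor, against 5.40 and 5.38 in controls (-0.58, SE 0.139, limma adjusted p = 0.16). NPTX2, the closest neuronal relative, had 5.80 and 5.38 with the inhibitor, against 5.51 and 4.86 in controls, and the groups overlapped.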
